A study of Triticum aestivum with 8 samples.

Results

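Developing wheat grain was compared between whole seed collected 15 days after fertilization (DAP15) and endosperm collected 9 days after fertilization (DAP9), with 2 RNA-seq libraries per group, which are 4 of the 8 grain libraries of the series. All libraries came from the cultivar AiKang58 (AK58), grown in a greenhouse after vernalization. The DAP15 seed was taken whole, whereas the embryo had been removed from the DAP9 endosperm. Whether seed coat and pericarp were also removed at DAP9 is not given in the sources used here. Stage and tissue change together in this design and cannot be told apart. In such bulk samples, a smaller share of cells of a type and less RNA of a gene per cell cannot be told apart either. Only a part of each table was used, and rows outside that part were not looked at. Statements below that a row or gene was or was not in a table refer to that part only. The comparison used the 82 genes with a complete row in that part of all 4 tables. Of these, 30 reached 1 TPM or more in 2 or more of the 4 libraries and were tested. TPM is the abundance of a transcript per length, scaled so that all genes of a library sum to the same total.

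The starchy endosperm of wheat accumulates starch and the gluten proteins, which are the gliadins and the glutenins. Gliadins are mostly monomeric prolamins that give dough its viscosity. The gamma-gliadins are rich in sulfur and form disulfide bonds within the molecule, whereas the omega-gliadins are poor in sulfur and consist largely of repeats of glutamine and proline. Low molecular weight glutenin subunits (LMW-GS) are linked by disulfide bonds into the polymers that make dough elastic. Genes of these families lie in clusters near the end of the short arm of the group 1 chromosomes, and the tables used here cover genes whose identifiers place them on chromosome 1A.

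The part of the tables used here held 179 complete rows in each DAP15 table and 194 and 192 rows in the DAP9 tables. It held 3.85% and 3.83% of the total TPM at DAP15 and 3.78% and 2.78% at DAP9. These shares cover unlike sets of genes and are not comparable. LMW-GS genes with 1.95% and 1.97% are in the DAP15 part only. TraesCS1A02G007700, with 14093 TPM in DAP9 replicate 1, has no complete row in DAP9 replicate 2. In the part used, each DAP9 table contained 110 rows with ENSRNA identifiers, whereas 0 such rows stood in either DAP15 table. The order of the rows also differed, and whether the DAP15 tables hold such rows elsewhere was not looked at. The part of these differences in the results was not tested. Replicates lay close together. Pearson's r between replicates was 0.999 at DAP15 and 0.998 at DAP9, on log2(TPM + 1) over 30 genes that are not independent of each other. The median absolute difference between replicates on that scale was 0.076 at DAP15 and 0.19 at DAP9, and 23 of the 30 genes differed more at DAP9. In TPM, 0 genes differed more than 2-fold between DAP15 replicates, and 1 gene, TraesCS1A02G001700, did so between DAP9 replicates, by 2.03-fold. The 4 listed gliadin genes, a family known as specific to the endosperm, had at least 112 TPM in every library of both groups. No marker list of embryo, seed coat or pericarp was used, so the share of these tissues was not measured in either group.

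**Figure D1:**
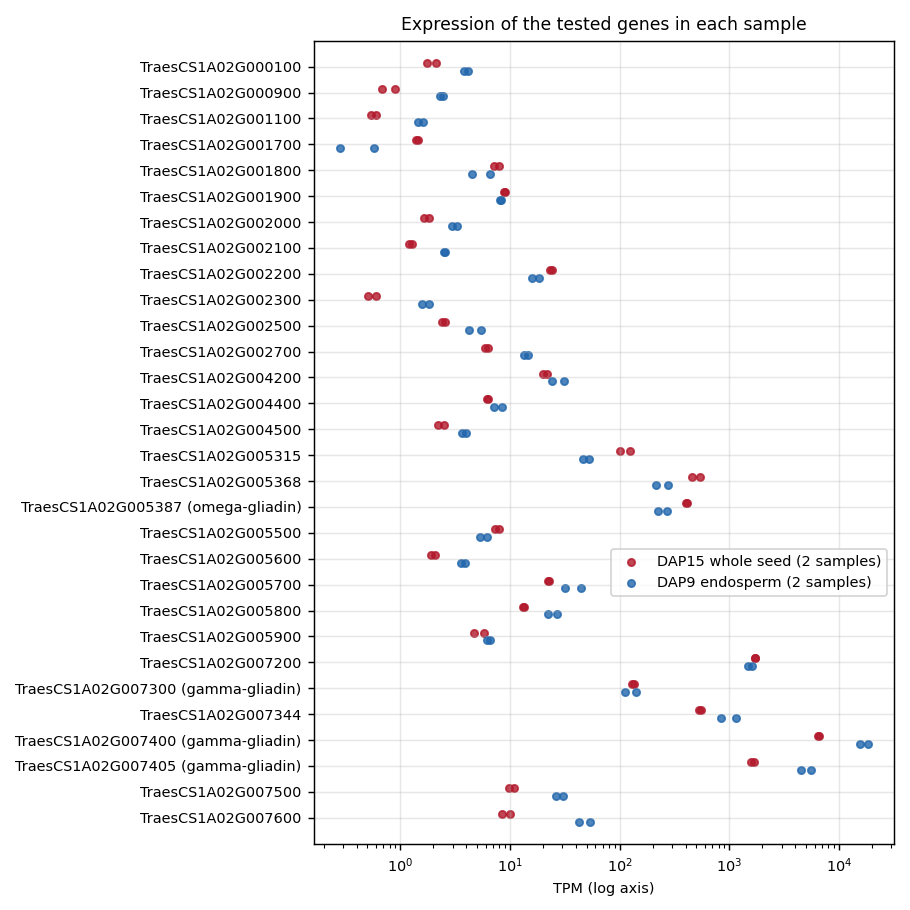
TPM of the 30 tested genes in each sample on a log axis, with 2 DAP15 whole seed samples (red) above 2 DAP9 endosperm samples (blue) for each gene, ordered by identifier. Values run from 0.284 to 18385 TPM, and the samples of the 2 groups overlap only for TraesCS1A02G007300.

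Of the 30 tested genes, 7 (23.3%) were differentially expressed (adjusted p under 0.01 with an absolute log2 fold change above 1), with 2 (6.67%) higher and 5 (16.7%) lower in DAP15 seed. The higher genes were TraesCS1A02G005315 and TraesCS1A02G005368, which precede the omega-gliadin gene TraesCS1A02G005387 in identifier order. The lower genes were the gamma-gliadin genes TraesCS1A02G007400 and TraesCS1A02G007405, the genes TraesCS1A02G007500 and TraesCS1A02G007600 that follow them, and TraesCS1A02G002700. Without the threshold on the fold change, 23 genes (76.7%) passed, 6 higher (20.0%) and 17 lower (56.7%). The samples of the groups did not overlap for 20 genes lower in DAP15 seed (66.7%) and 9 genes higher (30.0%). Expression was compared with limma on log2(TPM + 1), with Benjamini-Hochberg adjustment over the 30 genes and only these 4 samples in the fit. The fit took the spread of every gene entirely from a trend shared by all genes, so small p-values from 2 samples per group can overstate the evidence, and the smallest p of an exact permutation test of 2 against 2 samples is 0.333. With all 8 grain libraries in the fit, 1 gene was called, TraesCS1A02G002700, and TraesCS1A02G007405, TraesCS1A02G007500 and TraesCS1A02G007600 were not in that fit because some tables lacked a complete row for them.

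**Figure D2:**
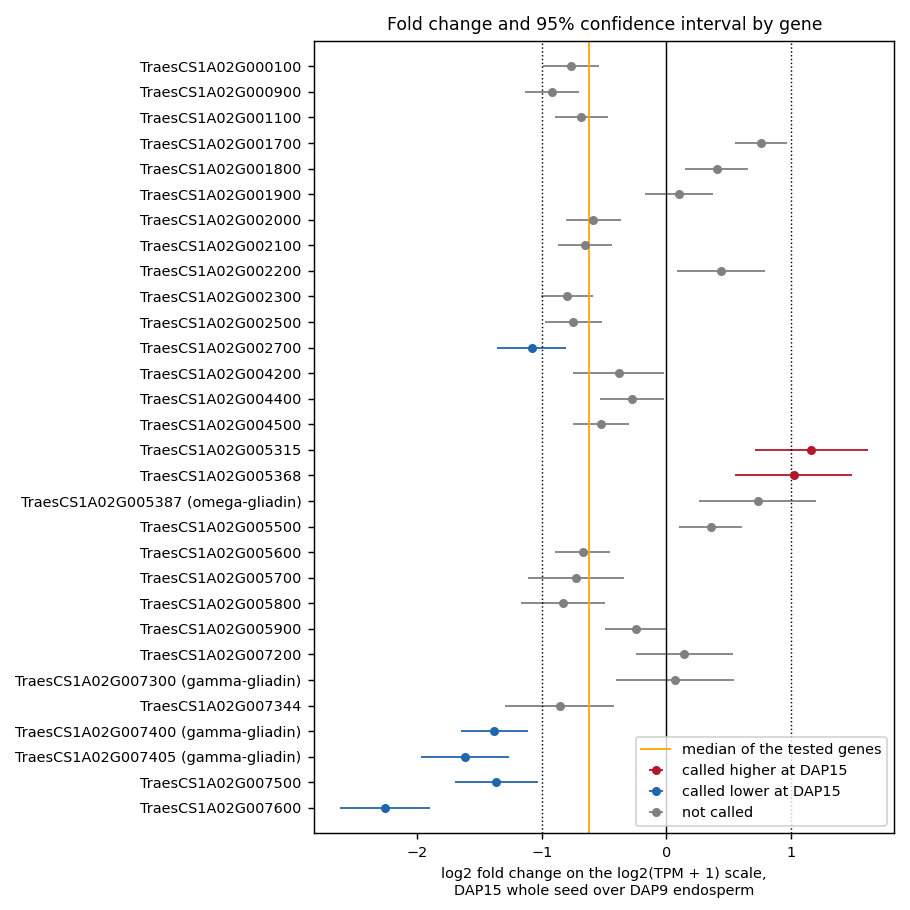
Log2 fold change of DAP15 whole seed over DAP9 endosperm on the log2(TPM + 1) scale for each tested gene, with 95% confidence intervals from limma (bars), 0 (solid line), changes of 1 (dotted lines) and the median of the tested genes (orange). The 5 called falls include 4 genes that are consecutive among the shared genes, from TraesCS1A02G007400 to TraesCS1A02G007600, and the 2 called rises are adjacent.

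The tested genes as a whole were shifted. Their median log2 fold change was -0.62 (SD 0.051 over the 4 pairs of samples), with 20 genes below 0 and 10 above. The pairs share libraries and are not independent, so this SD can understate the uncertainty. Size factors by the median of ratios, taken over the 42 shared genes above 0 in all 4 libraries, were tried as another scaling. These 42 genes include all 30 tested genes, so this scaling draws the median change toward 0 by construction. Whether so few genes give the scale between whole libraries was not tested. The median then was -0.15, and the 7 genes called were 5 higher and 2 lower in DAP15 seed, of which 4 were among the 7 called with TPM as deposited. The size factors were 0.762 and 0.846 for DAP15 and 1.22 and 1.23 for DAP9. Under these factors 3 genes below 0 turned above 0 (TraesCS1A02G004200, TraesCS1A02G004400 and TraesCS1A02G005900), and no gene above 0 turned below it. Relative to the median, the change of TraesCS1A02G007600 was -1.64 with TPM as deposited and -1.54 with the factors, and that of TraesCS1A02G005315 was 1.78 and 1.92. Scaling to the summed TPM of the tested genes outside the gliadin lists changed little, with a median of -0.59 and the same 7 calls, because that sum was 0.307% and 0.296% of the total TPM at DAP15 and 0.301% and 0.318% at DAP9. The sum came mostly from TraesCS1A02G007200, TraesCS1A02G007344, TraesCS1A02G005368 and TraesCS1A02G005315. Of these, TraesCS1A02G007344 was lower in DAP15 seed and the last 2 were called higher. This scaling therefore rests on a few genes that are themselves under test.

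**Figure D3:**
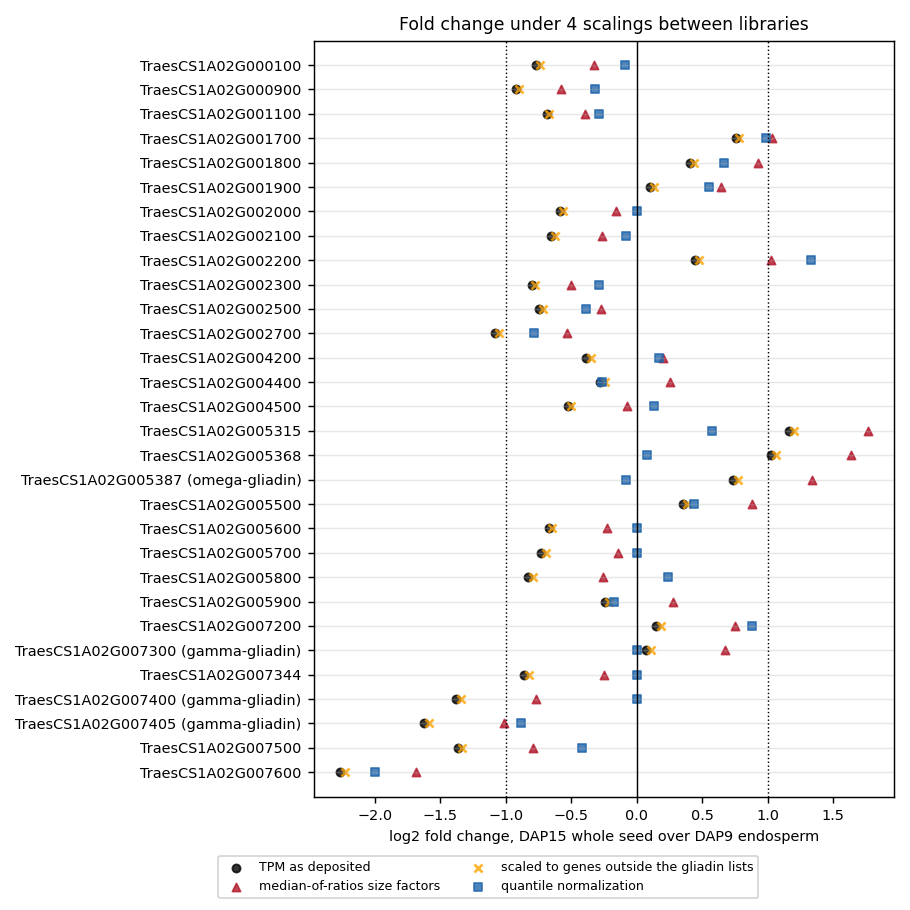
Log2 fold change of DAP15 whole seed over DAP9 endosperm for each tested gene with TPM as deposited (black circles), median-of-ratios size factors (red triangles), scaling to genes outside the gliadin lists (orange crosses) and quantile normalization (blue squares). Red triangles lie to the right of the black circles, with medians of -0.15 and -0.62, and quantile normalization sets genes of the same rank in every sample to 0.

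Of the 3 gamma-gliadin genes in all 4 tables, 2 fell and 1 did not pass the test, while 16.7% of all tested genes were called lower. TraesCS1A02G007400, the most abundant tested gene, had 6579.6 and 6412 TPM in DAP15 seed, against 15570 and 18385 TPM in DAP9 endosperm. Both DAP15 values were below both DAP9 values. Its mean was 6496 ± 119 TPM at DAP15 and 16978 ± 1991 TPM at DAP9 (SD, n = 2 each), with a fitted log2 change of -1.38 ± 0.13 (SE, limma adjusted p = 1.04e-13). TraesCS1A02G007405 had 1678 and 1562 TPM in DAP15 seed, against 4472 and 5544 TPM in DAP9 endosperm, again without overlap. Its log2 fold change was -1.62 ± 0.18 (SE, limma adjusted p = 4.65e-12). TraesCS1A02G007300 had 134 and 129 TPM in DAP15 seed, against 112 and 140.4 TPM in DAP9 endosperm, so that the DAP15 samples lay between the DAP9 samples. Its log2 fold change was 0.069, with a 95% confidence interval from -0.41 to 0.54 (adjusted p = 0.772 from limma), and it was -0.093 without DAP9 replicate 1 and 0.23 without DAP9 replicate 2. The median log2 fold change of the 3 genes was -1.38, against -0.62 over all tested genes. The fall of TraesCS1A02G007400 was not called with the size factors (-0.77) or with all 8 libraries in the fit. Neither fall was called with quantile normalization, in which the change of TraesCS1A02G007400 is 0 because it ranked first in every sample.

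The omega-gliadin gene was higher in both DAP15 samples but was not called. TraesCS1A02G005387 had 414 and 403 TPM in DAP15 seed, against 225 and 267 TPM in DAP9 endosperm. The groups did not overlap, and the log2 fold change of 0.73 ± 0.24 (SE, limma adjusted p = 0.00395) was under the fold threshold. It was called with the size factors (1.34), whereas quantile normalization gave -0.080. The 2 shared genes before it in identifier order, for which the tables give no name, rose. TraesCS1A02G005368 had 539 and 454 TPM in DAP15 seed, against 216 and 273 TPM in DAP9 endosperm, with a fitted log2 change of 1.02 ± 0.24 (SE, limma adjusted p = 8.61e-05). TraesCS1A02G005315 had 125 and 100.5 TPM in DAP15 seed, against 52.4 and 46.7 TPM in DAP9 endosperm, with a fitted log2 change of 1.17 ± 0.23 (SE, limma adjusted p = 6.99e-06). For neither gene did the groups overlap. Neither gene was called without DAP15 replicate 1 (log2 fold changes of 0.90 for TraesCS1A02G005368 and 1.01 for TraesCS1A02G005315) or without DAP15 replicate 2 (1.15 and 1.32). The standard errors were then 0.47 to 0.55, since the spread came from the DAP9 pairs alone. TraesCS1A02G005368 was also not called without DAP9 replicate 1 (0.86), and both were lost with no filter on low values, with all 8 libraries in the fit and with quantile normalization.

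The ratio of 2 genes within a library does not depend on how the libraries are scaled to each other. The omega-gliadin gene stood at 4.94% and 4.98% of the summed TPM of the 3 gamma-gliadin genes in the DAP15 libraries, against 1.12% and 1.11% in the DAP9 libraries, a 4.45-fold higher ratio in DAP15 seed. The gap between the groups was far larger than that between replicates. TraesCS1A02G007300 stood at 2.03% and 2.02% of TraesCS1A02G007400 in DAP15 seed, against 0.719% and 0.764% in DAP9 endosperm, so the gamma-gliadin genes changed unequally among themselves. The ratio of TraesCS1A02G007405 to TraesCS1A02G007400 changed less. It was 25.5% and 24.4% in DAP15 seed, against 28.7% and 30.2% in DAP9 endosperm, a 0.85-fold ratio without overlap between the groups. TraesCS1A02G005315 stood at 23.2% and 22.1% of its neighbour TraesCS1A02G005368 in DAP15 seed, against 24.3% and 17.1% in DAP9 endosperm, with the DAP15 values between those of DAP9. Reads shared by near-identical gliadin copies may be split between them in a way that the sources used here do not give, so values of single gliadin genes are uncertain.

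Summed over the 4 listed gliadin genes of all 4 tables, expression was 0.881% and 0.851% of the total TPM in DAP15 seed, against 2.04% and 2.43% in DAP9 endosperm. The means were 0.866% ± 0.0212 at DAP15 and 2.24% ± 0.280 at DAP9 (SD, n = 2 each). The difference was -1.37 percentage points of the total TPM. With TPM divided by the size factors, the difference on the same scale was -0.744. That value is not a share, since the divided values of a library no longer sum to the same total. With TPM as deposited, the difference was -1.39 percentage points for the gamma-gliadin genes and 0.0163 for the omega-gliadin gene, which lay in the opposite direction. The gamma-gliadin genes held 0.839% and 0.810% of the total TPM at DAP15, against 2.02% and 2.41% at DAP9. The omega-gliadin gene held 0.0414% and 0.0403% at DAP15, against 0.0225% and 0.0267% at DAP9. Within the tested part, the 4 genes took 74.1% and 74.2% of the summed TPM in DAP15 seed, against 87.1% and 88.4% in DAP9 endosperm.

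A further gamma-gliadin gene, TraesCS1A02G007700, had 6819 and 6908 TPM in DAP15 seed, against 14093 TPM in DAP9 replicate 1. Its row in the table of DAP9 replicate 2 was unfinished, so it was not tested. Among the LMW-GS genes of the study's list, 4 of 17 were in the part of the DAP15 tables used, and together they held 1.95% and 1.97% of the total TPM. TraesCS1A02G008000 was the most abundant of them, with 14849 and 15056 TPM, followed by TraesCS1A02G010900 with 3881 and 3865 TPM and TraesCS1A02G007934 with 784 and 736 TPM. TraesCS1A02G010905 had 3.93 and 3.56 TPM. These 4 genes were not analysed at DAP9. In the DAP15 seed, the 5 listed gliadin genes and the 4 LMW-GS genes together took up 3.51% of the total TPM in each library. No gene of the alpha-gliadin, high molecular weight glutenin, starch pathway or key transcription factor lists was in the part of all 4 tables used. Rows outside that part were not looked at, so nothing is said on these genes.

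**Figure D4:**
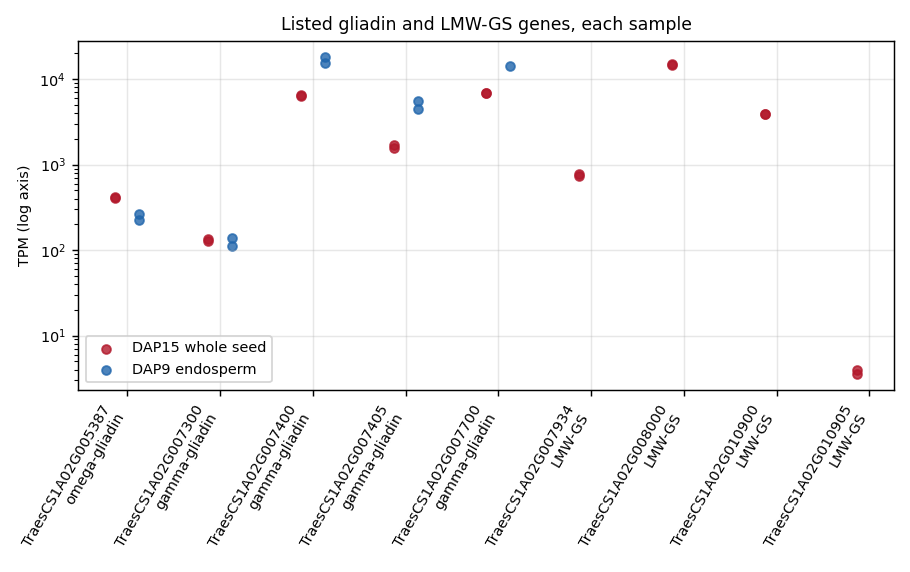
TPM of the listed gliadin and LMW-GS genes in each sample on a log axis, with DAP15 whole seed (red) left of DAP9 endosperm (blue). TraesCS1A02G007400 and TraesCS1A02G007405 lie lower at DAP15, TraesCS1A02G005387 lies higher, the DAP15 points of TraesCS1A02G007300 lie between its DAP9 points, and the 4 LMW-GS genes have DAP15 values only.

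The largest fall was that of a gene outside the gliadin lists. TraesCS1A02G007600 had 10.1 and 8.51 TPM in DAP15 seed, against 54.1 and 42.9 TPM in DAP9 endosperm, a 5.22-fold lower mean TPM. Its log2 fold change was -2.26 ± 0.18 (SE, limma adjusted p = 4.76e-17), and it was also called with the size factors (-1.69). Its neighbour TraesCS1A02G007500 had 10.8 and 9.81 TPM in DAP15 seed, against 30.1 and 26.4 TPM in DAP9 endosperm, with a fitted log2 change of -1.37 ± 0.17 (SE, limma adjusted p = 1.75e-10). The genes were at a similar level in DAP15 seed, where TraesCS1A02G007600 stood at 92.7% and 86.7% of TraesCS1A02G007500, against 180% and 163% in DAP9 endosperm. TraesCS1A02G002700 had 6.23 and 5.90 TPM in DAP15 seed, against 14.7 and 13.3 TPM in DAP9 endosperm, with a fitted log2 change of -1.08 ± 0.14 (SE, limma adjusted p = 6.57e-10). The groups did not overlap for any of these genes. With the size factors, TraesCS1A02G007500 (-0.79) and TraesCS1A02G002700 (-0.53) were not called, and TraesCS1A02G002700 was also not called with a pseudocount of 5. None of the 3 genes was called with quantile normalization, where TraesCS1A02G007600 was at -1.99 with a standard error of 0.54, TraesCS1A02G007500 at -0.41 and TraesCS1A02G002700 at -0.78. For these genes neither a name nor a function is given by the tables or the gene table used.

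The next most abundant genes outside the gliadin lists were not called, apart from the 2 rises above. TraesCS1A02G007200, the most abundant tested gene outside the gliadin lists, had 1699 and 1713 TPM in DAP15 seed, against 1618 and 1471 TPM in DAP9 endosperm. The DAP15 values were higher without overlap, but the log2 fold change of 0.14 had a 95% confidence interval from -0.25 to 0.54 (adjusted p = 0.483 from limma). TraesCS1A02G007200 stood at 25.8% and 26.7% of TraesCS1A02G007400 in DAP15 seed, against 10.4% and 8.00% in DAP9 endosperm. TraesCS1A02G007344, which lies between 2 gamma-gliadin genes in identifier order, had 551 and 533 TPM in DAP15 seed, against 839 and 1153 TPM in DAP9 endosperm. Its log2 fold change of -0.86 ± 0.22 (SE, limma adjusted p = 0.000375) was under the fold threshold, and it was called without DAP9 replicate 1 (-1.09). TraesCS1A02G005700 had 22.1 and 22.5 TPM in DAP15 seed, against 44.4 and 31.7 TPM in DAP9 endosperm, the widest gap between replicates on the log2(TPM + 1) scale. Its log2 fold change was -0.73 ± 0.19 (SE, limma adjusted p = 0.000584).

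The smallest changes at a mean of at least 5 TPM, besides those of TraesCS1A02G007300 and TraesCS1A02G007200, were in 3 genes. TraesCS1A02G001900 had 8.96 and 8.72 TPM in DAP15 seed, against 8.11 and 8.26 TPM in DAP9 endosperm, a log2 fold change of 0.10 with a 95% confidence interval from -0.17 to 0.37. TraesCS1A02G005900 had 4.73 and 5.74 TPM in DAP15 seed, against 6.60 and 6.11 TPM in DAP9 endosperm, and TraesCS1A02G004400 had 6.30 and 6.20 TPM in DAP15 seed, against 8.46 and 7.15 TPM in DAP9 endosperm. The log2 fold changes of the last pair were -0.24 and -0.28, and 0.28 and 0.26 with the size factors, so their direction depends on the scaling. A larger change was that of TraesCS1A02G002200, which had 23.1 and 24.01 TPM in DAP15 seed, against 18.3 and 15.9 TPM in DAP9 endosperm. Its log2 fold change was 0.44 (adjusted p = 0.0184 from limma), and it was called under size factors (1.02) and under quantile normalization (1.33). The quantile setting removes spread between replicates of equal rank by construction. Its standard error there was 0.00058, against 0.18 with TPM as deposited, so that call is no added evidence.

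The remaining 13 tested genes are outside the naming rule and are named here after their values were seen. Of these, 11 had lower values in both DAP15 samples than in both DAP9 samples, as did 66.7% of all tested genes. Apart from TraesCS1A02G004200 and TraesCS1A02G005800, none of the 11 was above 5.44 TPM in any library. TraesCS1A02G005800 had 13.0 and 13.4 TPM in DAP15 seed, against 26.6 and 22.1 TPM in DAP9 endosperm, a log2 fold change of -0.83, or -0.25 under size factors and 0.24 under quantile normalization. TraesCS1A02G004200 had 21.9 and 19.8 TPM in DAP15 seed, against 31.0 and 24.4 TPM in DAP9 endosperm, a change of -0.38 that turned to 0.20 under size factors and 0.17 under quantile normalization. In TraesCS1A02G002500 the values were 2.52 and 2.41 TPM at DAP15, against 4.26 and 5.44 TPM at DAP9. The changes of TraesCS1A02G002300, TraesCS1A02G005600, TraesCS1A02G002100, TraesCS1A02G002000 and TraesCS1A02G004500 lay between -0.80 and -0.53 with TPM as deposited, and that of TraesCS1A02G004500 was 0.13 with quantile normalization. The 2 genes higher at DAP15 were TraesCS1A02G001800, with 7.18 and 7.86 TPM in DAP15 seed, against 6.58 and 4.47 TPM in DAP9 endosperm, and TraesCS1A02G005500, with 7.95 and 7.24 TPM in DAP15 seed, against 6.18 and 5.28 TPM in DAP9 endosperm. Their log2 fold changes were 0.40 and 0.36, under the fold threshold.

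In the DAP9 tables, 17 of the 82 shared genes stand within a run of 126 rows of which 109 have ENSRNA identifiers, and 4 of the 17 were tested. None of the 4 was called, against 23.3% of all tested genes, and all 4 had an adjusted p under 0.01 from limma, as did 76.7% of all tested genes. TraesCS1A02G001700 had 1.43 and 1.39 TPM in DAP15 seed, against 0.284 and 0.577 TPM in DAP9 endosperm, a log2 fold change of 0.76 (standard error 0.11), and was called with the size factors (1.04). The other members were lower in DAP15 seed. TraesCS1A02G000900 had 0.684 and 0.886 TPM in DAP15 seed, against 2.44 and 2.30 TPM in DAP9 endosperm. TraesCS1A02G000100 had 1.76 and 2.10 TPM in DAP15 seed, against 4.17 and 3.80 TPM in DAP9 endosperm, and TraesCS1A02G001100 had 0.540 and 0.601 TPM in DAP15 seed, against 1.61 and 1.43 TPM in DAP9 endosperm. At such levels the pseudocount of 1 draws the fitted change toward 0. With a pseudocount of 0.1 the 4 genes were called, among 12 called of all 30 tested genes. Without the genes of the run, the same 7 genes were called of 26 tested.

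The study grouped differentially expressed genes into clusters on these same libraries, so the direction of their members here is not independent evidence. Of its DAP15-specific cluster, 4 genes were tested. These were TraesCS1A02G005315, TraesCS1A02G005368, TraesCS1A02G005387 and TraesCS1A02G002200. All 4 had higher values in both DAP15 samples than in both DAP9 samples, as did 30.0% of all tested genes. The first 2 were called, and these 2 are the only genes called higher among the 30 tested (6.67%). The median log2 fold change of the 4 was 0.88, against -0.62 over all tested genes. Of the DAP20-specific cluster 9 genes were in all 4 tables and 3 were tested, with 0 called, against 23.3% of all tested genes. Their log2 fold changes were split in direction, with a median of -0.77. TraesCS1A02G000900 (-0.92) and TraesCS1A02G000100 (-0.77) were lower in DAP15 seed, and TraesCS1A02G001700 (0.76) was higher. These 3 genes are also among those of the ENSRNA run described above. All 3 had an adjusted p under 0.01 from limma, as did 76.7% of all tested genes. No gene of its DAP5-specific or DAP9-specific cluster was among the 82. The study's clusters specific to leaf, to DAP5 and DAP9 together and to DAP15 and DAP20 together were not looked up here.

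Of the 82 shared genes, 28 were listed at 0 TPM in all 4 libraries and 24 more were above 0 in at least 1 library but below the filter, with no value over 1.78 TPM. Among 16 consecutive shared genes from TraesCS1A02G002800 to TraesCS1A02G004126, a stretch chosen after the values were seen, 13 were listed at 0 in all 4 libraries and the highest value was 0.154 TPM. Tested genes with higher values stand on either side of this stretch in both groups. Of the untested genes, 5 were listed at 0 in both DAP9 libraries and above 0 in both DAP15 libraries, of which TraesCS1A02G000800 was highest, with 0.633 and 1.03 TPM at DAP15. The opposite pattern was found for 0 genes. These values are near the lower end of the tables, and the depth behind them is unknown.

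The called genes were placed against the other grain stages, in which DAP5 is endosperm and DAP20 is whole seed. TraesCS1A02G002700 had 39.5 and 39.1 TPM in DAP5 endosperm, 14.7 and 13.3 TPM in DAP9 endosperm, 6.23 and 5.90 TPM in DAP15 seed and 6.16 and 6.65 TPM in DAP20 seed. It was lower at each stage up to DAP15, and the DAP15 values lay close to those of DAP20. TraesCS1A02G005315 had 6.83 and 0.717 TPM in DAP5 endosperm, 52.4 and 46.7 TPM in DAP9 endosperm, 125 and 100.5 TPM in DAP15 seed and 42.6 and 56.0 TPM in DAP20 seed. TraesCS1A02G005368 had 47.6 and 5.05 TPM in DAP5 endosperm, 216 and 273 TPM in DAP9 endosperm, 539 and 454 TPM in DAP15 seed and 185 and 253 TPM in DAP20 seed. Both genes had their highest values at DAP15. TraesCS1A02G007400 had 1369 and 90.0 TPM in DAP5 endosperm and 3630 and 7455 TPM in DAP20 seed. TraesCS1A02G007405 had 367 and 23.3 TPM in DAP5 endosperm and 1923 TPM in replicate 2 of DAP20 seed. The DAP5 replicates of all these genes except TraesCS1A02G002700 lay far apart. With all 8 libraries in the fit, the standard error of TraesCS1A02G007400 was 1.69, against 0.13 with 4 libraries. For TraesCS1A02G007600 and TraesCS1A02G007500, the DAP5 table of replicate 2 gave 122 and 60.3 TPM, which were above all their DAP9 and DAP15 values, and the values of these genes in the other tables of DAP5 and DAP20 were not analysed here.

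**Figure D5:**
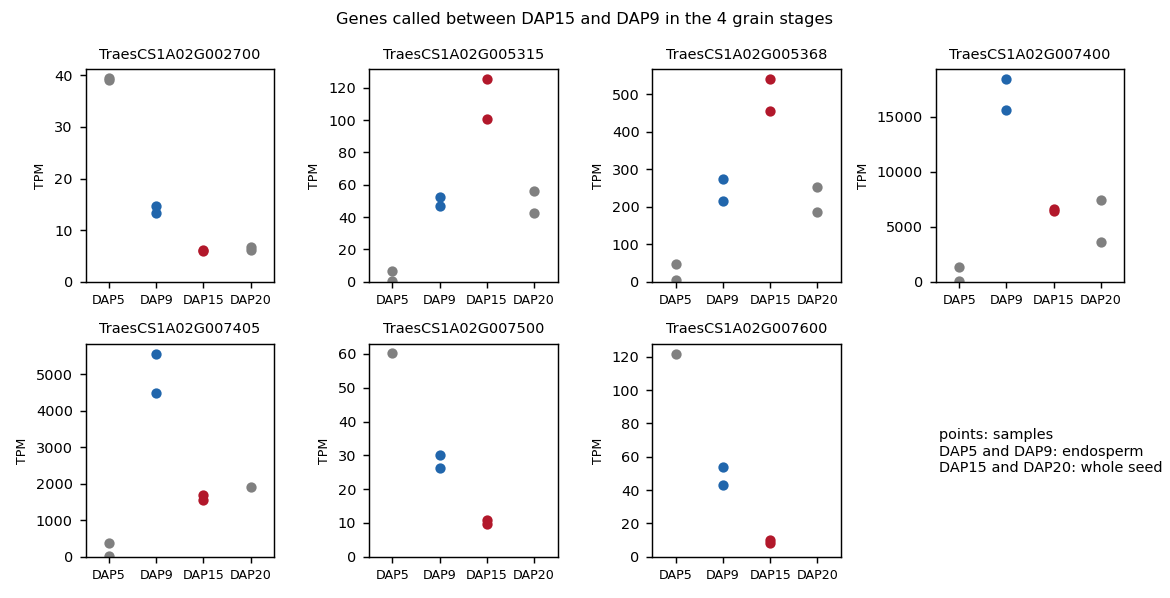
TPM of the 7 called genes in each sample (points) of the 4 grain stages, in order of age, on linear axes that start at 0, with DAP9 endosperm in blue, DAP15 whole seed in red and the other stages in grey. TraesCS1A02G005315 and TraesCS1A02G005368 are highest at DAP15, TraesCS1A02G007400 and TraesCS1A02G007405 at DAP9, and TraesCS1A02G002700 at DAP5.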

How the data were processed

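RNA-seq tables of 2 DAP15 whole seed and 2 DAP9 endosperm libraries were used, grouped by their titles. The authors deposited TPM per gene and library. Their methods name fastp, hisat2 and TPMCalculator, while the submitters' processing notes list Trimmomatic, HISAT2 2.0.5 and StringTie 1.3.3b. Genome build and annotation are not given in the sources used here. Only a part of each table was used, and its unfinished last row was dropped. TPM keeps no read counts, so depth is unknown and no counting error is given. None of the 289 identifiers of the 4 tables matched the gene table used (IWGSC CS RefSeq v2.1), so 0 positions and sequences are given, and functions come only from the study's gene lists.

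Genes complete in all 4 tables with at least 1 TPM in at least 2 samples were fitted with limma 3.58.1 in R 4.3.3 (lmFit, eBayes with trend) on log2(TPM + 1). Genes were called at the study's thresholds, 0.01 for the p adjusted by Benjamini-Hochberg and 1 for the absolute log2 fold change. DESeq2, used by the authors, needs counts and was not run. Python 3.11.15 was used for other steps. Fitted changes understate those of genes with low TPM. The steps were tested on simulated data. Replicates shared 0 identical values above 0. The study calls its replicates biological but does not say whether they came from separate plants. The p-values therefore rest on the spread between these samples only, pooled over genes by the trend.

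Genes named are the listed gliadin and LMW-GS genes, all called genes, the 5 largest non-overlapping rises and falls, the 5 most abundant genes outside the gliadin lists, genes at 0 in a whole group and the 5 smallest changes at a mean of at least 5 TPM. Members and lists were chosen with earlier results of these data known. Alternatives were other pseudocounts, filters, scalings and thresholds, a replicate block, all 8 libraries in the fit, eBayes without trend, each sample left out in turn and the genes of the ENSRNA run left out.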

Additional observations from a re-analysis of the deposited data

How the results depend on the processing

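The count of 7 calls was 12 with a pseudocount of 0.1, 1 with quantile normalization (TraesCS1A02G002200, higher at DAP15), 1 with all 8 grain libraries in the fit, where 27 genes were tested, and 23 with no fold change threshold. With each sample left out in turn it was 5 to 7, and the lone sample of a group is then assumed to vary like the other group. It was 5 without DAP15 replicate 1, where both rises were lost, and 6 without DAP15 replicate 2, where both were lost and TraesCS1A02G000900 was added. It was 5 with no filter, 6 with a pseudocount of 5, and 7 with a filter at 5 TPM, an adjusted p under 0.05 or eBayes without trend. Replicate numbers are not stated to pair samples. The differences between replicates had a correlation of -0.15 across genes between the groups, and with the replicate block the same 7 genes were called, as with the numbers crossed, which was added after seeing the data. The median log2 fold change of -0.62 was -0.78 with a pseudocount of 0.1, -0.27 with a pseudocount of 5, -0.064 with no filter, -0.26 with a filter at 5 TPM, -0.15 with size factors, 0 with quantile normalization, -0.53 with all 8 libraries, -0.56 without the genes of the ENSRNA run and -0.63 to -0.55 with each sample left out. The difference in the summed gliadin TPM was -1.37 percentage points of the total TPM as deposited. After division by the size factors it was -0.744 on the same scale, which is no longer a share. Directions turned for TraesCS1A02G004400 (0.26), TraesCS1A02G005900 (0.28) and TraesCS1A02G004200 (0.20) with size factors, for TraesCS1A02G005387 (-0.080), TraesCS1A02G004200 (0.17), TraesCS1A02G005800 (0.24) and TraesCS1A02G004500 (0.13) with quantile normalization, and for TraesCS1A02G007300 (-0.093 to 0.23 with each sample left out). The cause of these changes was not tested. Quantile normalization over 30 genes sets genes of equal rank to 0 by construction. It also removes the spread between replicates in which a gene has the same rank. The size factors draw the median change toward 0 by construction, since the genes they were taken over include all tested genes.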

Other observations

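In the part of the DAP15 tables used, 97 genes had complete rows that were not in the part used of both DAP9 tables. They therefore belong to no comparison. Of these, 46 were listed at 0 TPM in both DAP15 libraries and 18 had at least 1 TPM in both. Apart from the listed gliadin and LMW-GS genes, the 92 others held 0.0284% and 0.0280% of the total TPM. Their most abundant member, chosen after the values were seen, was TraesCS1A02G014100, with 182 and 193 TPM, followed by TraesCS1A02G014000 with 38.1 and 28.2 TPM. TraesCS1A02G007900, which stands between the gamma-gliadin gene TraesCS1A02G007700 and the LMW-GS gene TraesCS1A02G008000 by its identifier, had 19.4 and 15.0 TPM.

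In the part of the DAP9 tables used, the 110 rows with ENSRNA identifiers summed to 275 and 248 TPM. The kind of RNA is not stated in the tables.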
